A study of Saccharomyces cerevisiae with 8 samples.

Results

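The 32 genes described here carry out or control sterol synthesis, storage and uptake in the budding yeast Saccharomyces cerevisiae. They were found by gene name, with the systematic open reading frame name as a check, among 6225 genes that had a probe on the array. Each of the 32 had 1 probe and passed the filter on dim signals, which kept 5393 genes for testing. That filter kept a gene if, in 1 group or more, both arrays gave a signal well above background. Of the 32, 30 were well above background on all 8 arrays, HES1 on 7 and PDR11 on 4. PDR11 passed only through its wild-type groups.

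Ergosterol is the main sterol of the yeast plasma membrane, where it sets fluidity and packing together with sphingolipids. It is built from acetyl-CoA by way of mevalonate, farnesyl diphosphate, squalene and lanosterol, and several of the later steps consume molecular oxygen, with heme or iron in the enzyme. The zinc-cluster factors Upc2 and Ecm22 activate many of the genes. Cells import sterol from outside mainly when oxygen is scarce, and store surplus sterol as esters.

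Transcript levels were measured in total RNA from wild type and from a strain with HTZ1 deleted, both labelled BY4147. HTZ1 encodes the histone variant H2A.Z, found in promoter nucleosomes. Cells grew exponentially in the rich medium YPD and were taken either without added salt or 20 minutes after NaCl was brought to 0.4 M, a hyperosmotic stress. Each of the 4 groups held 2 biological replicates, each on its own single-colour array. The arrays lay on 1 slide, with the strains in different rows and the treatments in different columns, so that strain and row, or salt and column, cannot be told apart.

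HTZ1 (YOL012C) was well above background on the 4 wild-type arrays and on 0 of the 4 deletion arrays. Its bound on the difference between strains was at least 65.7-fold without salt and at least 75.5-fold with salt, lower in the deletion strain. On each array 82.2 to 88.9% of spots were well above background, and replicates correlated across all tested genes at r = 0.987 to 0.993. Over the 32 genes the largest difference between replicates was 0.27 (log2) in unstressed wild type, 0.37 in salt-treated wild type, 0.57 in the unstressed deletion strain and 0.40 in the salt-treated deletion strain.

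Levels below are log2 signals relative to the 75th percentile of the same array, given as replicate 1 and replicate 2. They compare 1 gene between arrays and do not rank different genes, because probes differ in brightness. Changes are log2 differences between group means with the moderated standard error (SE) of limma. A gene rose or fell where its Benjamini-Hochberg adjusted p over all 5393 genes was under 0.05.

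Salt lowered much of the synthetic pathway in both strains. In wild type 16 of the 32 genes fell, 4 rose and 12 did not pass the test, beside 25.7% of all tested genes that fell and 31.2% that rose. In the deletion strain 20 fell, 2 rose and 10 did not pass, beside 29.1% of all genes that fell and 29.3% that rose. PDR11 is among the 20 but was not well above background on any deletion array, which leaves 19 genes with a measured fall. The median change of the 32 was −0.35 in wild type and −0.46 in the deletion strain, against 0.07 and 0.01 over all tested genes. Of the 32 changes, 25 lay below 0 in wild type and 28 in the deletion strain. The count that fell in wild type was 10 without either unstressed wild-type array, and the count that rose in the deletion strain was 0 without its unstressed replicate 1 or its salt-treated replicate 2.

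**Figure D1:**
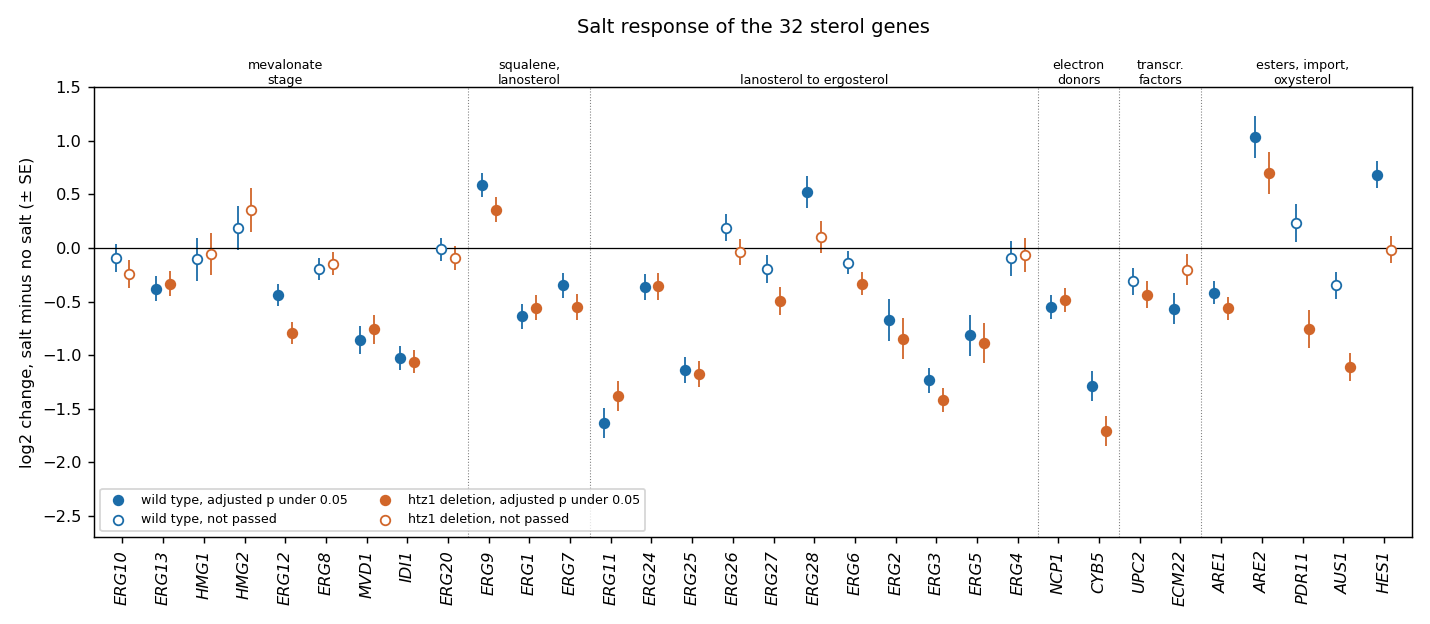
Salt response of the 32 sterol genes in pathway order, as log2 change (salt minus no salt) in wild type (blue) and in the HTZ1 deletion strain (orange), with lines for ± 1 moderated SE. Filled points passed at an adjusted p under 0.05. PDR11 in the deletion strain is drawn at its fitted value although neither group was well above background. ERG11, ERG3, ERG25, IDI1 and CYB5 lie at or beyond −1 in both strains, and ARE2 and ERG9 lie above 0 in both.

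Several enzymes that turn lanosterol into ergosterol fell by more than 2-fold in both strains. ERG11 (YHR007C), the cytochrome P450 lanosterol demethylase that azole drugs inhibit, read 3.09 and 3.32 in unstressed wild type and 1.55 and 1.59 after salt. The deletion strain gave 2.80 and 3.11 without salt and 1.55 and 1.59 with salt. The salt-treated arrays lay below the unstressed arrays in both strains, with no overlap. With 2 arrays a group, non-overlap was also seen for genes that did not pass, such as ERG10 in the deletion strain. ERG11 fell 3.1-fold in wild type (−1.63, SE 0.14, limma adjusted p = 6.77e-05) and 2.6-fold in the deletion strain (−1.38, SE 0.14, adjusted p = 0.000131).

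ERG3 (YLR056W), the sterol desaturase that introduces a ring double bond late in the pathway, read 3.05 and 3.12 in unstressed wild type and 1.75 and 1.95 after salt. Its deletion-strain levels were 3.48 and 3.53 without salt and 2.12 and 2.05 with salt. ERG3 fell 2.35-fold in wild type (−1.23, SE 0.11, limma adjusted p = 9.53e-05) and 2.67-fold in the deletion strain (−1.42, adjusted p = 3.85e-05). ERG25 (YGR060W), the methyl oxidase that starts removal of the paired methyl groups of the sterol ring, read 3.08 and 3.19 against 1.94 and 2.06 in wild type. The deletion-strain levels of ERG25 were 3.46 and 3.69 against 2.41 and 2.39. It fell 2.2-fold and 2.26-fold (limma adjusted p = 0.000193 and 0.000142). For both genes the salt-treated and unstressed arrays of a strain did not overlap.

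ERG5 (YMR015C), the second cytochrome P450 of the pathway, which desaturates the sterol side chain, fell by 0.81 on the log2 scale in wild type (limma adjusted p = 0.0084) and by 0.89 in the deletion strain (0.00545). Its replicates lay further apart than those of the genes above, at −1.49 and −1.12 in salt-treated wild type, and the wild-type call was lost without unstressed replicate 2 or salt-treated replicate 1 (adjusted p = 0.052 and 0.0537). ERG2 (YMR202W), the sterol isomerase, fell by 0.67 in wild type and by 0.85 in the deletion strain. The wild-type call of ERG2 was lost without unstressed replicate 1 or salt-treated replicate 2 (adjusted p = 0.11 and 0.113). ERG24 (YNL280C), the sterol reductase that follows ERG11, fell by 0.36 in both strains, with limma adjusted p of 0.0383 and 0.0386, but the wild-type call was lost without any of 6 single arrays (adjusted p = 0.0528 to 0.192) and the deletion-strain call without any of 5 (0.0623 to 0.142).

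The other members of this stage were ERG6, ERG27, ERG26, ERG4 and ERG28. ERG6 (YML008C), the methyltransferase that gives ergosterol its side-chain methyl group, changed by −0.14 in wild type (limma adjusted p = 0.318) and fell by 0.33 in the deletion strain (0.0322). ERG27 (YLR100W), the ketoreductase of the demethylation complex, changed by −0.20 in wild type (0.247) and fell by 0.49 in the deletion strain (0.0152). The ERG6 call was lost without any array other than unstressed deletion replicate 2 (adjusted p = 0.0524 to 0.167), and the ERG27 call without unstressed deletion replicate 1 or salt-treated deletion replicate 2 (0.0667 and 0.0823). ERG26 (YGL001C), the dehydrogenase of that complex, and ERG4 (YGL012W), the last reductase of the pathway, passed the test in neither strain, with changes from −0.10 to 0.19. ERG28 (YER044C), the scaffold that holds the demethylation enzymes together in the endoplasmic reticulum, went the other way in wild type. It read −0.24 and −0.34 without salt and 0.29 and 0.18 with salt, a rise of 0.52 (SE 0.15, limma adjusted p = 0.0197) that was lost without either unstressed array or salt-treated replicate 1 (adjusted p = 0.059 to 0.0947). Over the 11 genes of the stage, 6 fell and 1 rose in wild type (median −0.36), and 8 fell and 0 rose in the deletion strain (median −0.49).

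**Figure D2:**
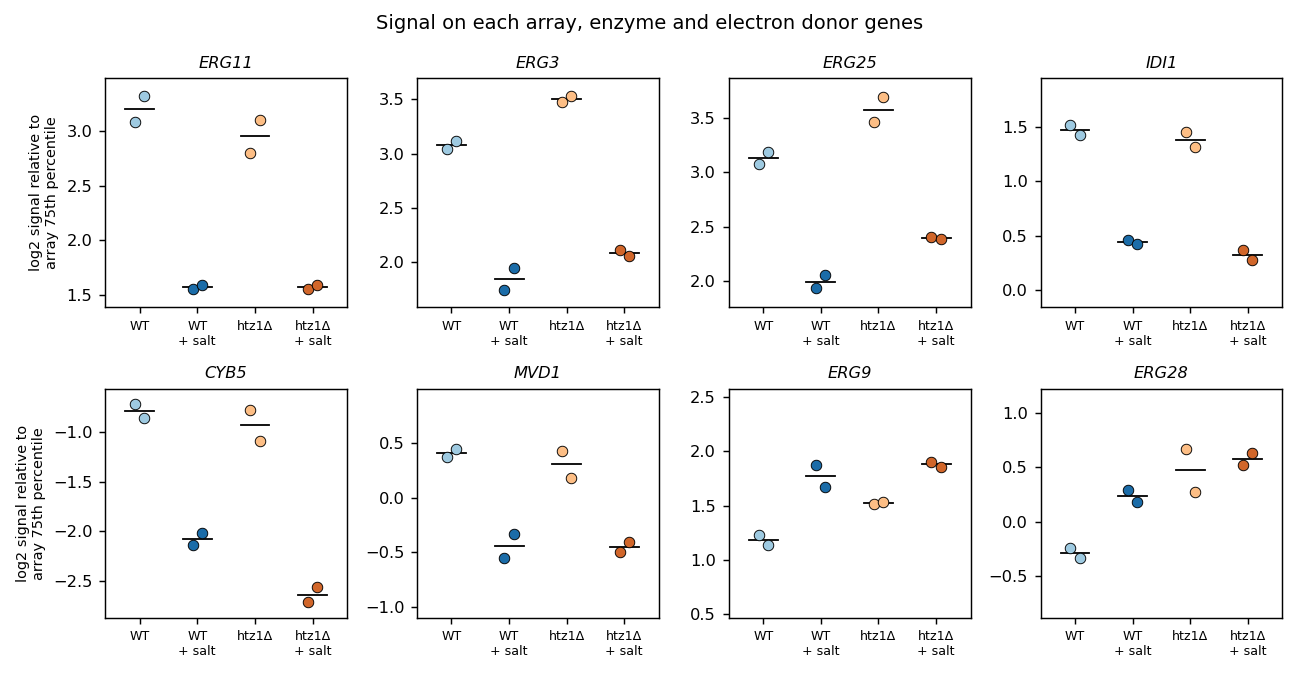
Level of 8 sterol genes on each of the 8 arrays, as log2 signal relative to the 75th percentile of the array, with points for replicates and bars for group means. ERG11, ERG3, ERG25, IDI1, CYB5 and MVD1 are lower on the salt-treated arrays of both strains, ERG9 is higher on them, and ERG28 is lowest in unstressed wild type.

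The proteins that pass electrons to these enzymes fell with them. CYB5 (YNL111C), cytochrome b5, read −0.72 and −0.86 in unstressed wild type and −2.14 and −2.02 after salt. Its deletion-strain levels were −0.78 and −1.09 without salt and −2.72 and −2.56 with salt. It fell 2.44-fold in wild type (−1.29, SE 0.14, limma adjusted p = 0.000224) and 3.26-fold in the deletion strain (−1.71, SE 0.14, adjusted p = 4.67e-05). NCP1 (YHR042W), the NADPH reductase that serves cytochromes P450, fell by 0.55 in wild type (limma adjusted p = 0.00433) and by 0.48 in the deletion strain (0.00763). Under quantile scaling both NCP1 calls were lost.

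The oxygen-using enzymes were grouped after the values were seen, so that their counts are a description only. ERG1, ERG11, ERG25, ERG3 and ERG5 are the 5 members known to use molecular oxygen, and all 5 fell in both strains, as did the 2 electron donors NCP1 and CYB5. The median change of these 7 genes was −1.14 in wild type and −1.18 in the deletion strain. Of the other 25 members, 9 fell and 4 rose in wild type, and 13 fell and 2 rose in the deletion strain, with medians of −0.20 and −0.33. Among all tested genes, 25.7% fell and 31.2% rose in wild type, and 29.1% fell and 29.3% rose in the deletion strain. The groups overlap: IDI1, MVD1 and ERG2, which are not in the group, fell further in both strains than ERG1 and NCP1, which are.

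The step before lanosterol held genes that moved in opposite directions. ERG9 (YHR190W), squalene synthase, which commits farnesyl diphosphate to sterols, read 1.23 and 1.14 in unstressed wild type and 1.88 and 1.67 after salt. The deletion strain gave 1.51 and 1.53 without salt and 1.90 and 1.86 with salt. ERG9 rose in wild type by 0.59 (SE 0.12, limma adjusted p = 0.00382) and in the deletion strain by 0.36 (SE 0.12, adjusted p = 0.03), and the second call was lost without either unstressed wild-type array or any of the 4 deletion arrays (adjusted p = 0.0532 to 0.125). ERG1 (YGR175C), squalene epoxidase, read 1.24 and 1.38 against 0.58 and 0.76 in wild type. It fell by 0.64 there (limma adjusted p = 0.00284) and by 0.56 in the deletion strain (0.00503). ERG7 (YHR072W), lanosterol synthase, fell by 0.35 in wild type (limma adjusted p = 0.0394) and by 0.55 in the deletion strain (0.00574). The wild-type call of ERG7 was lost without any of the 4 wild-type arrays or either salt-treated deletion array (adjusted p = 0.0548 to 0.179).

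Among the 9 genes from acetyl-CoA to farnesyl diphosphate, 4 fell and 0 rose in each strain, with medians of −0.20 and −0.24. The same genes passed in both: ERG13, ERG12, MVD1 and IDI1. IDI1 (YPL117C), isopentenyl diphosphate isomerase, read 1.52 and 1.43 in unstressed wild type and 0.46 and 0.42 after salt, and 1.45 and 1.31 against 0.37 and 0.27 in the deletion strain. It fell 2.04-fold and 2.08-fold (limma adjusted p = 0.000194 and 0.000145). MVD1 (YNR043W), mevalonate diphosphate decarboxylase, fell 1.81-fold in wild type (−0.86, SE 0.13, limma adjusted p = 0.00126) and 1.69-fold in the deletion strain (−0.76, adjusted p = 0.00217).

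ERG12 (YMR208W), mevalonate kinase, read −1.16 and −1.20 in unstressed wild type and −1.58 and −1.66 after salt. Deletion-strain levels of ERG12 were −0.75 and −0.76 without salt and −1.51 and −1.58 with salt, so that it fell by 0.44 in wild type (limma adjusted p = 0.00819) and by 0.79 in the deletion strain (0.000434). The wild-type call was lost without unstressed replicate 1 or salt-treated replicate 2 (adjusted p = 0.0509 and 0.0572). ERG13 (YML126C), HMG-CoA synthase, fell by 0.38 and 0.33 (limma adjusted p = 0.0277 and 0.0433), and the calls were lost without 3 of the 4 wild-type arrays in wild type (adjusted p = 0.0534 to 0.164), all but salt-treated replicate 2, and without any single array in the deletion strain (0.0549 to 0.189). The HMG-CoA reductases HMG1 (YML075C) and HMG2 (YLR450W), which carry out the step where the pathway is chiefly controlled, did not pass in either strain without a block. HMG1 changed by −0.11 (95% interval −0.57 to 0.36) in wild type, and HMG2 by 0.19 (−0.29 to 0.67). In the deletion strain HMG2 changed by 0.35 (limma adjusted p = 0.174), and with a replicate block it was called higher there (adjusted p = 0.0372). ERG10, ERG8 and ERG20, the thiolase, phosphomevalonate kinase and farnesyl diphosphate synthase, changed by −0.24 to −0.01 and did not pass.

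Of the 2 transcription factors of the pathway, 1 fell in each strain, ECM22 in wild type and UPC2 in the deletion strain. ECM22 (YLR228C) read −1.56 and −1.44 in unstressed wild type and −1.90 and −2.23 after salt, a fall of 0.56 (limma adjusted p = 0.0129). The change in the deletion strain was −0.20 (0.272). UPC2 (YDR213W) changed by −0.31 in wild type (limma adjusted p = 0.0692, or 0.0459 with a replicate block) and fell by 0.44 in the deletion strain (0.0198). The ECM22 call was lost without unstressed or salt-treated wild-type replicate 2 (adjusted p = 0.0743 and 0.0795), and the UPC2 call without unstressed deletion replicate 2 or either salt-treated deletion array (0.0558 to 0.101).

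The acyltransferases that make steryl esters for storage moved in opposite directions. ARE2 (YNR019W), the main acyltransferase of aerobic cells, read −3.67 and −3.45 in unstressed wild type and −2.58 and −2.47 after salt. Deletion-strain levels of ARE2 were −3.17 and −2.71 without salt and −2.44 and −2.04 with salt. It rose 2.05-fold in wild type (1.04, SE 0.20, limma adjusted p = 0.00334) and 1.62-fold in the deletion strain (0.70, SE 0.20, adjusted p = 0.018). With normexp background correction both calls were lost, at 0.81 and 0.19. The deletion-strain call was also lost without its unstressed replicate 1 or salt-treated replicate 2, at 0.50 and 0.47. ARE1 (YCR048W) read 0.73 and 0.72 against 0.41 and 0.22 in wild type and fell by 0.42 (limma adjusted p = 0.0141) there and by 0.56 (0.00346) in the deletion strain. Its wild-type call was lost without either unstressed array or salt-treated replicate 2 (adjusted p = 0.0665 to 0.0931).

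Both transporters that import sterol were called lower in the deletion strain, without and with salt. The PDR11 call is not independent of the filter on dim signals, which this gene passed only through wild type. AUS1 (YOR011W) and PDR11 (YIL013C) encode ATP-binding cassette transporters that take up sterol when oxygen is low. AUS1 read −2.00 and −2.13 in unstressed wild type, −2.56 and −2.27 in salt-treated wild type, −2.72 and −2.76 in the unstressed deletion strain and −3.87 and −3.83 in the salt-treated deletion strain. Every deletion array lay below every wild-type array. Without salt AUS1 was 1.6-fold lower in the deletion strain (−0.67, SE 0.13, limma adjusted p = 0.0177), and with salt 2.71-fold lower (−1.44, SE 0.13, adjusted p = 0.00102).

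PDR11 read −3.40 and −3.23 in unstressed wild type and −3.04 and −3.13 after salt. On the 4 deletion arrays it was not well above background, so only a bound on the change can be given. Each bound sets the mean of the bright group against the mean, over the dim arrays, of the higher of the gene's own signal and the lowest signal well above background. By this bound, taken in the main values, PDR11 was lower with the deletion, at least 2.65-fold without salt and at least 4.35-fold with salt. These bounds do not hold under normexp or in the authors' deposited values, where the changes were smaller. The limma adjusted p of 0.000251 and 0.000173 belong to the fitted differences of its signals, those not well above background included, and do not test the bounds.

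The PDR11 and AUS1 calls were lost in the normexp alternative, which also differs from the main values in starting from median signals and in adding an offset. There the PDR11 changes were −0.46 (limma adjusted p = 0.679) without salt and −1.91 (0.117) with salt, and the AUS1 changes were −0.22 (0.655) and −1.07 (0.0653). In the authors' deposited values both genes were called lower in both conditions, by 0.80 and 0.94 on the log2 scale for PDR11 and by 0.43 and 0.57 for AUS1. The unstressed AUS1 call was also lost without either unstressed wild-type array or without replicate 2 of the unstressed deletion strain (adjusted p = 0.0517 to 0.116).

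**Figure D3:**
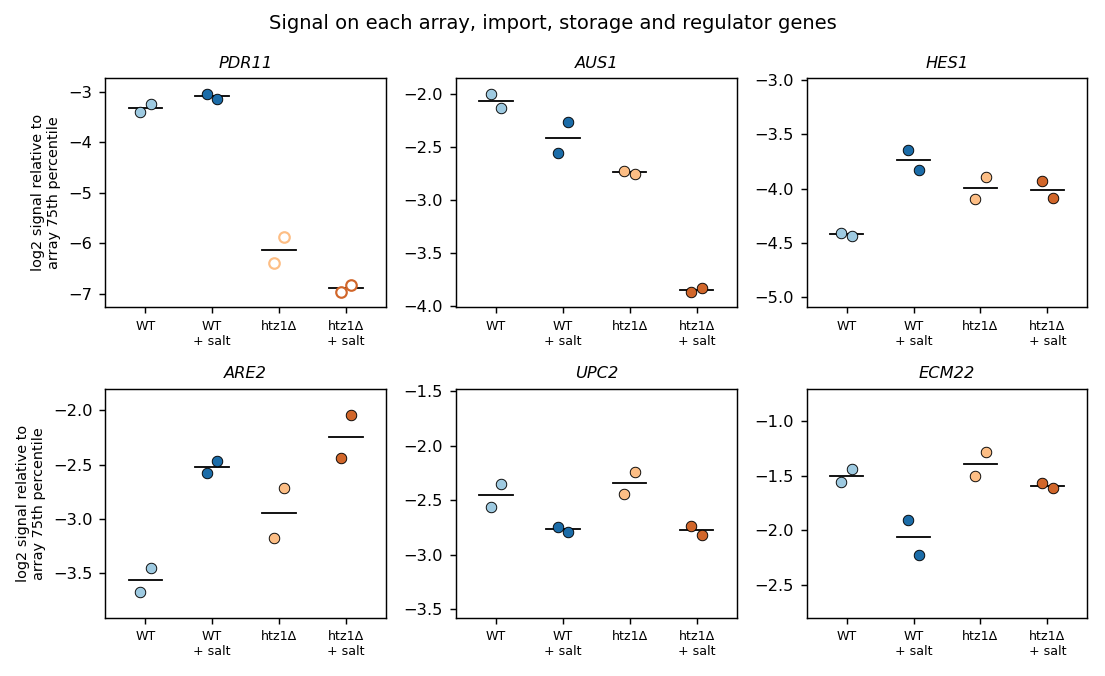
Level of PDR11, AUS1, HES1, ARE2, UPC2 and ECM22 on each array, as log2 signal relative to the 75th percentile of the array, with points for replicates and bars for group means. Open circles mark a group with no array well above background. PDR11 is open in both deletion groups, and AUS1 is lower on the 4 deletion arrays than on the 4 wild-type arrays.

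Within the wild type, salt changed AUS1 by −0.35 (limma adjusted p = 0.0518, or 0.0409 with a replicate block) and PDR11 by 0.23 (0.293). Within the deletion strain AUS1 fell 2.16-fold (−1.11, SE 0.13, limma adjusted p = 0.000263), and by 0.49 on the log2 scale in the authors' deposited values. HES1 (YOR237W), an oxysterol-binding protein of the family that moves sterols between membranes, read −4.41 and −4.43 in unstressed wild type and −3.64 and −3.83 after salt. Its unstressed wild-type signal was well above background on 1 of 2 arrays. HES1 rose 1.61-fold in wild type (0.68, SE 0.13, limma adjusted p = 0.00299), and the call was lost with normexp and in the authors' values. The HES1 change in the deletion strain was −0.01 (adjusted p = 0.931).

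In the fit without a replicate block, few members were called different between the strains. Their counts were near the shares of all tested genes without salt and below those shares with salt. More members were called with the block, as given below. The strain contrasts share arrays with the salt contrasts. Without salt 2 of the 32 genes were higher in the deletion strain, 2 (AUS1 and PDR11) were lower and 28 did not pass, where 7.36% of all tested genes were higher and 6.32% lower. Leaving out PDR11, which passed the filter only through wild type, 1 was lower. The genes that were higher were ERG28, at 0.67 and 0.28 against −0.24 and −0.34 in wild type (1.7-fold, 0.77, SE 0.15, limma adjusted p = 0.0183), and ERG12, described above (1.34-fold, 0.43, SE 0.10, adjusted p = 0.0343). For both genes the strains did not overlap without salt. The ERG28 call was lost without either unstressed wild-type array (adjusted p = 0.0789 and 0.103), and its change was 0.57 without deletion replicate 1 and 0.96 without replicate 2. The ERG12 call was lost without any single array (adjusted p = 0.0571 to 0.178).

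With the replicate number as a block, 10 of the 32 genes were higher in the deletion strain without salt and 2 lower, beside 13% and 12.9% of all tested genes with that block. The 8 added genes were ERG9, ERG25, ERG26, ERG27, ERG2, ERG3, ARE2 and HES1, with changes from 0.34 to 0.62 and blocked limma adjusted p from 0.013 to 0.0431. Of the 11 genes from lanosterol to ergosterol, 9 had a change above 0 in this contrast and 6 were called higher with the block, against 1 without it. Their median change was 0.41 without salt and 0.23 with salt, against −0.04 and −0.07 over all tested genes. ERG26 and ERG3 show the size of these differences. ERG26 read 2.20 and 1.92 in the unstressed deletion strain and 1.61 and 1.59 in wild type (0.46, limma adjusted p = 0.0506 without the block). ERG3 stood 0.42 higher (adjusted p = 0.0506 without the block).

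**Figure D4:**
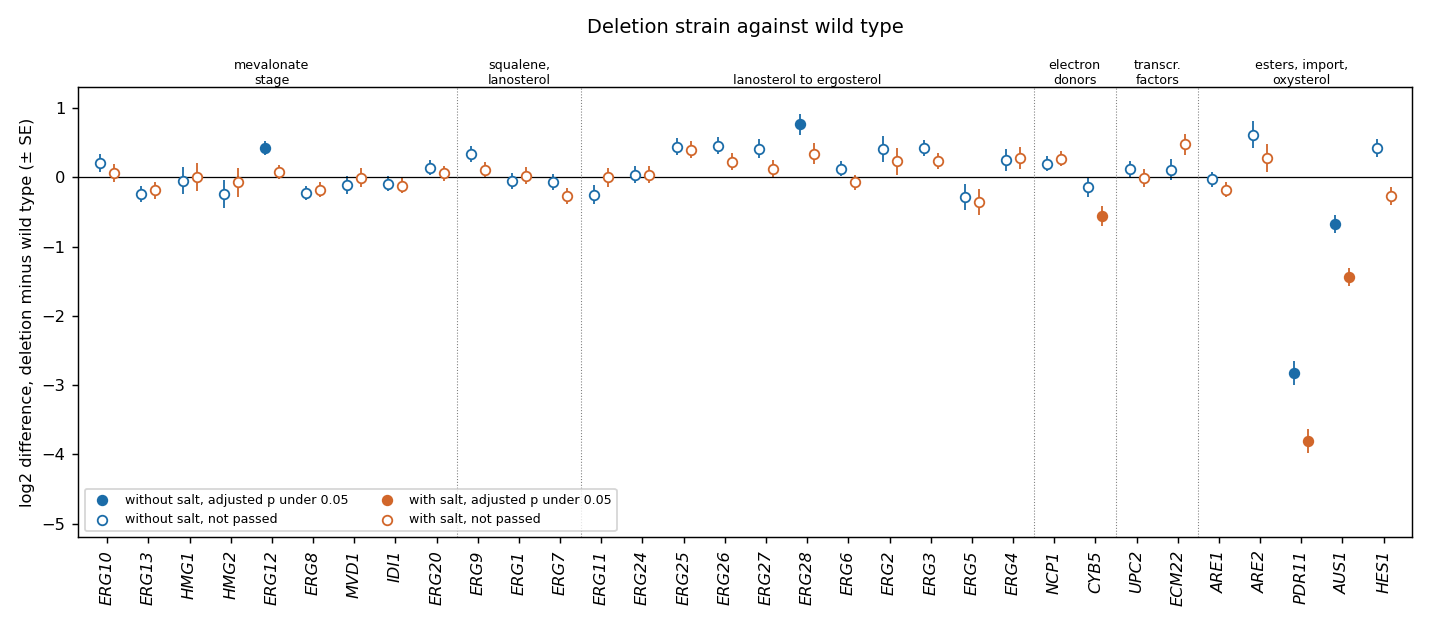
Log2 change (HTZ1 deletion minus wild type) of the 32 sterol genes without salt (blue) and with salt (orange), with lines for ± 1 moderated SE and filled points for an adjusted p under 0.05. PDR11 and AUS1 lie lowest in both conditions. PDR11 is drawn at its fitted value, but only a bound on its change is measured, because its deletion arrays were not well above background.

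With salt 0 of the 32 genes were higher in the deletion strain by limma and 3 were lower, where 5.77% of all tested genes were higher and 16.2% lower. At an unadjusted p under 0.05 the counts were 3 and 3, beside 11.6% and 24.6% of all genes. With the block they were 2 and 4, beside 10.9% and 23% of all genes. The genes that were lower were PDR11, AUS1 and CYB5, or 2 genes with PDR11 left out. CYB5 read −2.72 and −2.56 in the deletion strain against −2.14 and −2.02 in wild type (1.48-fold, −0.56, SE 0.14, limma adjusted p = 0.0301), with no overlap. The CYB5 call was lost under normexp, quantile scaling, the authors' values and without any array other than the unstressed deletion replicates (adjusted p = 0.0522 to 0.155 over these 6 arrays). The block added ERG25 (0.40, blocked adjusted p = 0.021) and ECM22 (0.47, 0.0458) as higher and ERG5 (−0.35, 0.024) as lower. ERG11 was level between the salt-treated strains, with a difference of 0.00 (95% interval −0.33 to 0.33). Over all tested genes, the called genes split into 311 higher and 872 lower with salt, but 433 and 564 under quantile scaling and 549 and 627 in the authors' values.

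The salt responses of the strains were compared directly by the interaction, the response of the deletion strain minus that of wild type. None of the 32 genes passed in limma, where 0.111% of all tested genes passed as higher and 0.89% as lower. At an unadjusted p under 0.05, 0 were higher and 4 lower, namely ERG12, PDR11, AUS1 and HES1, beside 2.21% and 9.9% of all genes. The lower count is near that share of all genes. With the block 0 of the 32 passed in either direction, beside 0.334% and 2.28% of all genes. AUS1 had an interaction of −0.76 (95% interval −1.19 to −0.33, limma adjusted p = 0.132), HES1 of −0.70 (−1.12 to −0.28, 0.161) and ERG12 of −0.35 (−0.69 to −0.02, 0.383). The PDR11 value rests on groups not well above background and is not read further. In the authors' deposited values the AUS1 interaction was −0.14 (adjusted p = 0.785). For CYB5 the interval of the difference ran from −0.89 to 0.05.

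The responses of the strains rest on separate arrays and can be set side by side. Of the 32 genes, 15 fell in both strains and 2, ERG9 and ARE2, rose in both, and 29 changed with the same sign. Of all 5393 tested genes, 1257 fell in both, 1377 rose in both and 4783 changed with the same sign. The same-sign count of the 32 is thus near the share of all genes. Across the 32 genes the responses correlated at r = 0.879, beside 0.940 across all 5393 genes. Genes are not independent replicates, and both responses were measured on 1 slide.

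Of 88 related genes chosen with earlier results of these data known, 85 were tested. Their counts under salt stand beside the shares of all tested genes given above, 31.2% higher and 25.7% lower in wild type and 29.3% and 29.1% in the deletion strain. None of the 85 passed in the interaction, where 0.111% of all tested genes passed as higher and 0.89% as lower. Among 16 genes for sterol transfer and oxysterol-binding proteins, 9 rose and 1 fell under salt in wild type, and 7 rose and 0 fell in the deletion strain, with medians of 0.59 and 0.47. LAM4, a membrane-contact protein that transfers sterol from the plasma membrane, rose 2.79-fold in wild type and 3.16-fold in the deletion strain (limma adjusted p = 8.38e-05 and 3.78e-05). OSH2, an oxysterol-binding protein, rose 2.34-fold in the deletion strain. In wild type its group mean moved the same way, from −1.51 to −0.36. Of 5 genes for steryl ester breakdown and sterol acetylation, 2 rose and 1 fell in wild type, and 1 rose and 3 fell in the deletion strain. ATF2, which acetylates sterols for export, fell 3.47-fold in wild type and 3.11-fold in the deletion strain, and YEH1, a steryl ester hydrolase, was 1.98-fold lower in the deletion strain with salt (limma adjusted p = 0.00733), a call lost without its salt-treated replicate 1 (0.0531).

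Among 17 tested regulators of sterol enzymes and of sterol gene transcription, 5 rose and 4 fell in wild type, and 5 rose and 1 fell in the deletion strain. NSG2, which stabilises HMG-CoA reductase, rose 2.39-fold in wild type, and HAP1, the heme-responsive activator, rose 2.44-fold in the deletion strain. The NSG2 mean of the deletion strain also moved up, from 0.79 to 1.90, as did the HAP1 mean of wild type, from −0.02 to 1.14. ROX1, a repressor of hypoxic genes, was 1.6-fold higher in the deletion strain with salt (limma adjusted p = 0.0212), a call lost without any 1 of the salt-treated arrays (up to 0.0988). Of 11 tested hypoxia, low-sterol cell wall and heme genes, 4 rose and 4 fell under salt in wild type, and 3 rose and 4 fell in the deletion strain. CYC7, the hypoxic cytochrome c isoform, was at least 15.6-fold higher under salt in wild type. In the deletion strain its group mean moved the same way, from −3.73 to 0.73. OLE1, the oxygen-using fatty acid desaturase, read 3.04 and 3.37 in unstressed wild type and 1.11 and −1.73 after salt, where it was well above background on 1 of 2 arrays. OLE1 fell by 3.52 on the log2 scale (SE 0.77, limma adjusted p = 0.00616). The change was −4.94 without salt-treated replicate 1 and −2.10 without salt-treated replicate 2. The OLE1 change in the deletion strain was −1.70 (adjusted p = 0.0938). Between strains, 3 of these 11 genes were higher and 1 lower in the deletion strain without salt, beside 7.36% and 6.32% of all tested genes. With salt 2 were higher and 2 lower, beside 5.77% and 16.2%. CYC7 and COX5B were called higher in both conditions. In unstressed wild type CYC7 read −5.07 and −5.83, with 0 arrays well above background, so the size of its difference without salt is not measured. The COX5B means were 0.88 against −0.74 in wild type without salt, and 2.71 against 2.00 with salt. HEM13, the oxygen-using coproporphyrinogen oxidase of heme synthesis, was 1.6-fold lower in the deletion strain without salt and 1.62-fold lower with it. The HEM13 calls were lost without unstressed wild-type replicate 1 or deletion replicate 2, and without salt-treated wild-type replicate 2 or deletion replicate 1 (adjusted p up to 0.138 and 0.0920). Both CYC7 strain calls and the COX5B call with salt were also lost without some single arrays, and the COX5B call without salt was not.

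The 11 genes on isoprenoid branches from farnesyl diphosphate gave 2 higher and 2 lower calls under salt in wild type and 3 and 2 in the deletion strain. COQ1, which makes the polyprenyl tail of coenzyme Q, rose 2.25-fold in the deletion strain. In wild type its group mean moved the same way, from 0.21 to 1.31. The 25 sphingolipid genes gave 7 higher and 8 lower calls in wild type and 7 and 7 in the deletion strain, near the shares of all genes. ELO3 and ELO2, the elongases of very long fatty acids, fell 3.7-fold and 2.66-fold in wild type, while the ceramidase YPC1 was at least 7.09-fold higher. Deletion-strain means moved the same way, from 2.16 to 0.15 for ELO3, 1.83 to 0.33 for ELO2 and −3.62 to −0.79 for YPC1.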

How the data were processed

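Per the file headers, the spot intensity values come from Agilent Feature Extraction, version 10.7.3.1, with background subtraction and detrending of the processed signal, on an array design of the sacCer2 build. The authors' deposited table gives 6187 probes on a log2 scale. Column medians were 10.55 to 10.57, each column matched its own array best, and how it was normalized is not given in the sources used. limma appears in the submitters' processing notes, with no version.

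Control spots and 86 outlier spots were left out. Processed signals were scaled to each array's 75th percentile (2740 to 4290), logged and averaged over the spots of a probe, with the brightest probe taken where a gene had several. limma 3.58.1 in R 4.3.3 fitted 4 group means over 8 arrays, without a replicate block. The fit was also run on simulated data with independent noise on each array. That simulation held no slide or replicate effect, so it cannot show how the fit handles them. Of 6256 probes, 5748 matched a gene of the R64 gene table, used for names and gene order only, and 4 related genes were matched by synonym.

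The groups share replicate numbers. Deviations of same-numbered arrays from their group means correlated in each of the 6 group pairs (r = 0.176 to 0.422). The main results nevertheless come from the fit without a block, which does not pair the samples. A fit with the replicate number as a block was run as an alternative, and it is given where it changes a call. The labels do not say what a number marks.

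The members and gene lists were chosen with earlier results of these data known. All 32 members could be named, and of the related lists up to 12 genes per comparison with the largest changes past the threshold. Genes outside this rule are said to be so where they appear. Alternatives were normexp background correction, run on median signals because the files hold no mean signal and with an offset of 50, quantile scaling, other filters on dim probes, the authors' values, the mean over probes, the 4 arrays compared, a replicate block, and leaving out each array. The number of arrays limits the precision. Sequences were not used here.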

Additional observations from a re-analysis of the deposited data

How the results depend on the processing

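Of the calls on the 32 sterol genes, 8 of 20 under salt in wild type and 13 of 22 in the deletion strain held under each of the 16 alternatives that gave a value, as did 0 of 4 strain calls without salt and 0 of 3 with salt. None of these called genes changed sign. In wild type the 8 were MVD1, IDI1, ERG9, ERG1, ERG11, ERG25, ERG3 and CYB5.

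Normexp background correction removed 8, 7, 4 and 3 of those calls. It left 1 gene higher under salt in each strain, 0 higher and 0 lower between strains without salt and 0 lower with salt, and gave medians of 0.0402 without salt and −0.0664 for the interaction. It moved the median of all genes from 0.01 to −0.18 under salt in the deletion strain, from −0.04 to 0.11 between strains without salt and from −0.07 to −0.21 for the interaction. Unprinted dark-corner spots read 106 to 115 against a local background of 40 to 42.5, and normexp used that local background. Its share of higher genes among all calls was 87.6% without salt, against 53.8%, and 35.6% under salt in the deletion strain, against 50.2%. SRT1, a related gene, was at 0.13 in place of −0.91 without salt. The cause of the lost calls was not tested.

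Quantile scaling gave medians of −0.36 under salt in the deletion strain and −0.0432 between the salt-treated strains, with 1 gene higher there. The authors' values gave medians of −0.30 and −0.29 under salt in wild type and the deletion strain, 0.0475 and −0.0275 between strains without and with salt, and −0.08 for the interaction, with 1 gene higher with salt. ERG20 in salt-treated wild type was called higher under both, at 0.32 and 0.26, against −0.01. Without the filter on dim probes 1 gene was higher between strains without salt. Over genes well above background on all 8 arrays, which leaves out PDR11 and HES1, 5 were higher and 1 lower without salt, 2 were higher with salt, and the interaction median was −0.10. With only the 4 arrays compared, 1 gene was higher under salt in the deletion strain and 0 between strains without salt. The cause of these shifts was not tested.

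With the replicate block, 10 genes were higher between strains without salt and 2 with salt. Under salt the block added HMG2 as higher in the deletion strain (0.35, adjusted p = 0.0372) besides the calls named above, and it changed no other call on the 32 genes.

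Leaving out each array in turn, 3 to 4 genes rose and 10 to 17 fell under salt in wild type (median −0.36 to −0.30), and 0 to 2 rose and 15 to 18 fell in the deletion strain (−0.50 to −0.38). Between strains 0 to 3 were higher and 1 to 2 lower without salt (0.0178 to 0.116), and 0 to 2 higher and 2 to 3 lower with salt (−0.0332 to 0.0420). The interaction stayed at 0 calls (−0.16 to −0.10). PDR11 and HES1 were not well above background on all arrays, which limits their values.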

Other observations

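The importers' neighbours in the R64 gene order were looked up after the values of AUS1 and PDR11 had been seen, and genes outside the naming rule are given here for that reason. Beside PDR11, the mannosyltransferase gene MNT3 differed between strains by 0.00 without salt and by −0.06 with salt (limma adjusted p = 0.999 and 0.81). On the other side YIL012W was not well above background on any array, and beyond it TIR3, a cell wall mannoprotein gene of low-oxygen growth, differed by −0.28 without salt (limma adjusted p = 0.225) and was lower by 0.64 with salt (adjusted p = 0.019). Beside AUS1, the related cell wall gene TIR2 was higher in the deletion strain by 0.63 without salt (limma adjusted p = 0.0433), and differed by 0.51 with salt (adjusted p = 0.0597). The TIR2 call was lost without any of the 4 wild-type arrays or either unstressed deletion array (adjusted p up to 0.219), and the TIR3 call without salt-treated wild-type replicate 2 or either salt-treated deletion array (up to 0.112).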
